A study of Mus musculus with 7 samples.

Results

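The plasminogen activator system was described through 5 genes out of the 27179 in the deposited matrix: the activators Plau and Plat, the urokinase receptor Plaur, and the serpin inhibitors Serpine2 and Serpinb2. They were chosen by function, with earlier results of these data known, as the rows whose mouse Entrez number carries those symbols. Each symbol matched 1 row. Gene expression had been measured by RNA sequencing of whole ankles, dissected without skin, from DBA1 mice in which arthritis had been induced with collagen. All 7 ankles were arthritic and all had received an injection of a lipid carrier into the joint. In 3 control ankles the lipoplex held an irrelevant microRNA, and in 4 ankles it held a mimic of miR-17-5p. No unarthritic or uninjected ankles were analysed here, and the labels give neither the age of the mice nor the dose or time of the injection. Whether each ankle is from a different mouse is not stated; the p-values reflect the spread among these 7 samples, some of which may be technical. The comparison asks how added miR-17-5p altered transcript levels in the inflamed joint.

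Plasminogen is a circulating zymogen, made mainly in the liver, that becomes the broad protease plasmin when it is cleaved by urokinase (encoded by Plau) or by tissue-type plasminogen activator (encoded by Plat). Plasmin dissolves fibrin and can activate latent matrix metalloproteinases, both of which are familiar features of inflamed synovium. Urokinase is held at the cell surface by its receptor, the product of Plaur, while serpins stop the activators by forming covalent complexes with them.

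The mimic carries the seed shared by the miR-17 family, and the mature sequences are shown because the seed decides which transcripts can be matched. Capitals mark bases 2 to 8, from RefSeq on GRCm38.p6. miR-17-5p lies at chr14:115043684-115043706 (plus strand), miR-20a-5p at chr14:115044183-115044205 (plus strand), and miR-93-5p at chr5:138165574-138165596 (minus strand).
miR-17-5p: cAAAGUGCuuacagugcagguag
miR-20a-5p: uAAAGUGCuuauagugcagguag
miR-93-5p: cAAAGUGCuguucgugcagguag

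The longest 3′ untranslated region that GENCODE release M21 annotates for each gene was searched for the matches GCACTTTA (8mer), GCACTTT or CACTTTA (7mers) and CACTTT (6mer), on the transcript strand. None of the 5 members held a 7mer or 8mer, in regions of 935 bases for Plau, 496 for Plaur, 738 for Plat, 808 for Serpine2 and 657 for Serpinb2. Over 12495 tested genes with such a region, 21.38% held at least 1 of the 7mers or the 8mer. Plau and Plat each held a single 6mer, and in Plat it made up the last 6 annotated bases. Of the partner genes of plasminogen handling, Lrp8, which encodes a receptor of the low-density lipoprotein receptor family, held an 8mer and a 6mer, and Vldlr, of the same family, held 2 of the 7mers. The 6mers of the members and the 8mer of Lrp8 are shown with the match in capitals, at chr14:20843151-20843178 (plus strand), chr8:22782828-22782844 (plus strand) and chr4:107875690-107875719 (plus strand). The mean of Lrp8 was 1.57 ± 0.47 FPKM with the control microRNA and 1.13 ± 0.17 FPKM with the mimic, and that of Vldlr was 11.5 ± 7.03 and 14.8 ± 5.08 FPKM, so the means differed in opposite directions and both genes overlapped between the groups. A match is a description of the letters and not a binding site.
Plau 6mer: aatgtcggtttCACTTTttatatagatg
Plat 6mer: ggtatttttcaCACTTT
Lrp8 8mer: gttcaacacaaGCACTTTAtaaaatagtct

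In the arthritic ankle the activators and the receptor had lower mean transcript levels with the mimic than with the control microRNA, by about the same proportion, while the inhibitor Serpine2 did not. Mean FPKM (reads per kilobase of exon, scaled to the assigned reads of the library) in mimic ankles was 68.1% of the control mean for Plau, 66.0% for Plaur and 65.2% for Plat, against 112% for Serpine2. No member passed the test over all genes. With limma on log2(FPKM + 0.5), 0 of 4 members tested had an adjusted p under 0.05, and neither did any of the 13418 genes tested (0%); limma-voom on the reads recovered from the FPKM also called 0. Without that adjustment, 3 of the 4 were lower at p under 0.05, where 10.1% of all genes tested were, and 0 were higher, where 7.48% were. The groups did not overlap in 2 of the 4, both lower with the mimic, against 8.84% of genes tested that were lower and 6.48% that were higher without overlap. In whole-ankle RNA, fewer cells of a type and less RNA per cell cannot be told apart.

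**Figure D1:**
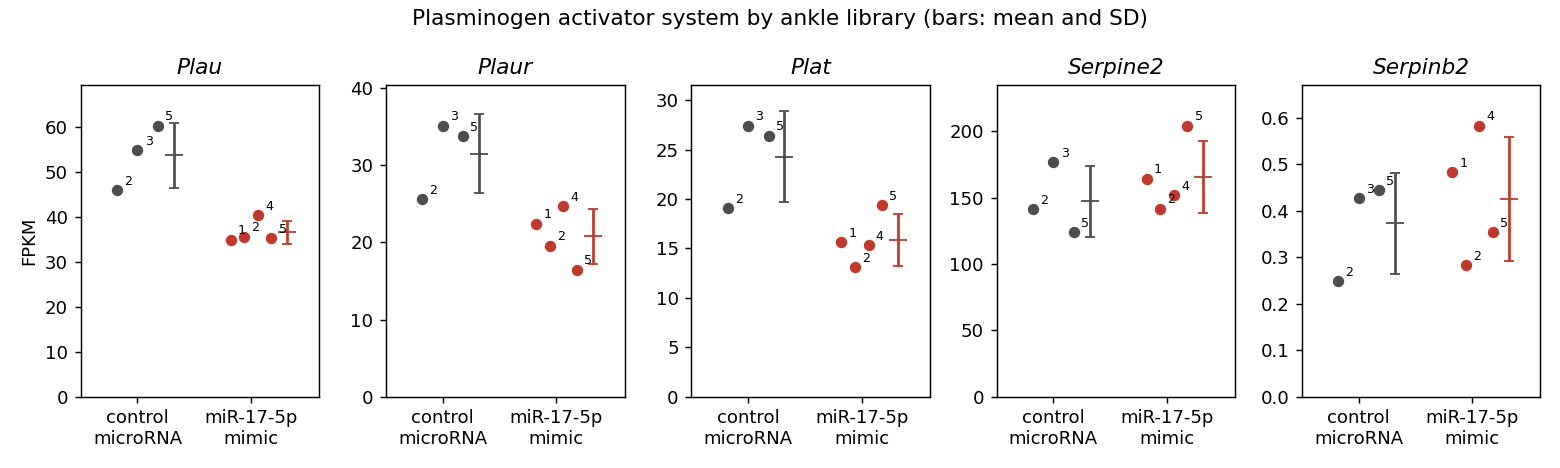
FPKM of each member in the 3 control and 4 mimic libraries; each point is a library labelled with its replicate number, and the bar beside each group is its mean ± SD. The vertical axes start at 0 and differ between panels. Every mimic library lies below every control library for Plau and Plaur, the groups meet for Plat at 19.0 and 19.4 FPKM, and they overlap widely for Serpine2 and Serpinb2.

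The libraries held between 27465276 and 31118975 assigned reads, which makes a single read over 1 kilobase of exon equal to 0.0321 to 0.0364 FPKM. Joint tissue was present in all of them: the summed FPKM of 6 cartilage markers lay between 684 and 802 in control and between 750 and 879 in mimic ankles. Most of each sum came from Comp, at 583 to 789 FPKM. All 6 averaged more in the mimic ankles, and 1, Col2a1, had an unadjusted p under 0.05, where 7.48% of all genes tested were higher. Keratinocyte transcripts stood apart in control replicate 5, where 6 epidermal markers summed to 80.7 FPKM against at most 1.68 in any other library. Krt1 was at 27.3 FPKM there, while Krt5 and Krt14 were at 0 in the other 2 control libraries. The skeletal muscle list was lowest in that library too, with a mean of 6.35 on the log2(FPKM + 0.5) scale, where the other libraries lay between 7.90 and 9.70. Results are therefore also given without it.

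Plau (mm10 chromosome 14, 20836662 to 20843388, plus strand, 11 exon blocks) showed the clearest separation. Control replicates 2, 3 and 5 stood at 45.8, 54.8 and 60.3 FPKM, and mimic replicates 1, 2, 4 and 5 at 34.9, 35.6, 40.3 and 35.3 FPKM. All 4 mimic values lay below the lowest control, and 3 of them lay within 1 FPKM of each other. The means were 53.6 ± 7.28 FPKM (SD, n = 3) and 36.5 ± 2.56 FPKM (SD, n = 4). The log2 fold change was -0.54 (SE 0.10, 95% interval -0.78 to -0.30, limma adjusted p = 0.173), and Plau ranked 61 by p among the genes tested. Without control replicate 5, the library with epidermal transcripts, it was -0.45 (limma adjusted p = 0.463). Without control replicate 2 it was -0.65 and Plau passed (limma adjusted p = 0.0302), as did 1.5% of all genes tested as lower in that fit. Over all alternatives the limma adjusted p ran from 0.0302 to 0.524, the highest with the replicate number as a block. Between 2400 and 4353 reads stood behind each value, so counting error is small beside the spread between libraries.

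Plaur (chromosome 7, 24462500 to 24475873, plus strand, 7 exon blocks) encodes the lipid-anchored receptor that concentrates urokinase on monocytes, neutrophils and fibroblasts. Its control values were 25.6, 35.2 and 33.8 FPKM in replicates 2, 3 and 5. Mimic replicates 1, 2, 4 and 5 stood at 22.4, 19.6, 24.7 and 16.5 FPKM, again with no mimic value above a control value, though mimic replicate 4 came within 1 FPKM of control replicate 2. The means were 31.5 ± 5.15 and 20.8 ± 3.58 FPKM. On the log2 scale the difference was -0.59 (SE 0.16, 95% interval -0.97 to -0.21, limma adjusted p = 0.179), or -0.73 without control replicate 2 (limma adjusted p = 0.0571). Without control replicate 5 the log2 fold change was -0.53 (limma adjusted p = 0.494).

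Neutrophil markers ran lower beside Plaur. All 12 genes of the neutrophil list had a lower mean in mimic ankles, and 5 were lower at an unadjusted p under 0.05, where 10.1% of all genes tested were. The amounts were uneven, from a log2 fold change of -1.43 for Cxcr2 to -0.013 for Camp, with the granule genes Ngp and Ltf at -0.15 and -0.17. The list means overlapped, from 5.91 to 7.16 in control and from 4.88 to 6.25 in mimic ankles on the log2(FPKM + 0.5) scale. The summed FPKM, most of it from S100a8 and S100a9, lay between 3213 and 6567 in control and between 1376 and 3541 in mimic ankles. None of the genes was under 1 FPKM on average. With the list mean as a covariate the log2 fold change of Plaur was -0.36 (limma adjusted p = 0.395), that of Plau was -0.48 and that of Plat was -0.60. The macrophage list overlapped between the groups, with sums from 1059 to 1204 FPKM in control and from 916 to 1218 FPKM in mimic ankles. Of its 10 genes 6 had a lower and 4 a higher mean in mimic ankles. At an unadjusted p under 0.05, 2 were lower, where 10.1% of all genes tested were, and 0 were higher. With the macrophage list mean as a covariate Plaur stood at -0.48. Osteoclast markers also ran lower in the mimic ankles: 5 of 6 were tested, and all 5 were lower at an unadjusted p under 0.05, where 10.1% of all genes tested were. The list summed to between 2103 and 2216 FPKM in control and between 1695 and 1898 FPKM in mimic ankles, with Calcr under 1 FPKM. The part of osteoclast content in the results for the members was not tested.

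Plat (chromosome 8, 22757744 to 22782848, plus strand, 14 exon blocks) encodes the activator that works on fibrin surfaces and is made by endothelium among other cells. Control replicates 2, 3 and 5 stood at 19.0, 27.4 and 26.4 FPKM and mimic replicates 1, 2, 4 and 5 at 15.6, 13.1, 15.3 and 19.4 FPKM. Control replicate 2 and mimic replicate 5 were nearly equal, so the groups overlapped. The means were 24.3 ± 4.58 and 15.8 ± 2.59 FPKM. On the log2 scale Plat differed by -0.60 (SE 0.16, 95% interval -0.98 to -0.22, limma adjusted p = 0.179), or by -0.76 without control replicate 2 (limma adjusted p = 0.0503). Endothelial markers did not run lower beside it: their summed FPKM lay between 273 and 310 in control and between 295 and 327 in mimic ankles, and 6 of 8 had a higher mean in the mimic ankles. Without control replicate 5 the log2 fold change of Plat was -0.53 (limma adjusted p = 0.498).

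Serpine2 (chromosome 1, 79794321 to 79858665, minus strand, 9 exon blocks) encodes protease nexin 1, a serpin that inhibits thrombin as well as urokinase and tissue-type activator. It was the most abundant member, and only 2.85% of the genes tested had a higher mean FPKM. Control replicates 2, 3 and 5 stood at 141, 177 and 124 FPKM and mimic replicates 1, 2, 4 and 5 at 164, 142, 152 and 204 FPKM. The groups overlapped, with the highest value in mimic replicate 5 and the lowest in control replicate 5. The means were 147 ± 26.8 and 166 ± 27.4 FPKM, and the log2 difference was 0.17 (SE 0.16, limma adjusted p = 0.585). The 95% interval ran from -0.20 to 0.54, so it holds no change as well as a rise of about the size by which Plau was lower. Across the alternatives the value lay between 0.054, without control replicate 5, and 0.36, with the replicate number as a block. In the block fit only the libraries numbered 2 and 5 set the group difference. A gene on the opposite strand, known here only by its Entrez number, shares 451 exon bases with Serpine2 and was at no more than 0.0705 FPKM in any library. How reads over the shared bases were counted is not given, so this low value does not show that the count of Serpine2 was unaffected.

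Serpinb2 (chromosome 1, 107511423 to 107525600, plus strand, 9 exon blocks) encodes plasminogen activator inhibitor 2, a largely intracellular serpin that activated macrophages can induce strongly. In these ankles it was close to silent, below the mean of 1 FPKM that a gene needed to be tested. Control replicates 2, 3 and 5 stood at 0.248, 0.427 and 0.444 FPKM and mimic replicates 1, 2, 4 and 5 at 0.483, 0.283, 0.583 and 0.353 FPKM, and the groups overlapped. Behind these values were 15, 24 and 28 reads in the control libraries and 30, 18, 35 and 21 in the mimic libraries. The exact 95% Poisson interval of the lowest count was 8.40 to 24.7 reads and that of the highest 24.4 to 48.7 reads, intervals that cover counting error only. No clear difference between the groups was seen at this depth (log2 difference 0.081, or -0.026 without control replicate 2). The 0.5 added before taking logs exceeds the gene's mean of 0.403 FPKM and shrinks this value, which was 0.14 with 0.1 added instead.

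Per kilobase the order of levels was Serpine2, Plau, Plaur, Plat and Serpinb2. Serpine2 was above Plau, Plau above Plaur and Plat above Serpinb2 in all 7 libraries. Plaur was above Plat in 6 of 7, the exception being mimic replicate 5, so these neighbours did not differ beyond their spread in that group.

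Within a library, Plau and Plat were each set against the inhibitor Serpine2, and neither ratio overlapped between the groups. Plat over Serpine2 was 0.135, 0.155 and 0.213 in control replicates 2, 3 and 5 and 0.0950, 0.0924, 0.101 and 0.0947 in mimic replicates 1, 2, 4 and 5. The mimic ratios were nearly constant although Plat and Serpine2 each varied among those libraries, and mimic replicate 5 had the most of both. Plau over Serpine2 was 0.324, 0.310 and 0.486 in the controls and 0.212, 0.251, 0.265 and 0.173 in the mimic ankles, also without overlap. By contrast Plau over Plaur was 1.71 ± 0.13 in control and 1.79 ± 0.26 in mimic ankles, and Plau over Plat 2.23 ± 0.21 and 2.35 ± 0.41, so urokinase, its receptor and the second activator kept their proportions within the spread. These ratios are given as descriptions and were not tested. Plau alone was also lower without overlap, as were 8.84% of genes tested, and no such share was taken for ratios. Serpine2 is only 1 of the inhibitors, so the ratios do not give the balance of the whole system.

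**Figure D2:**
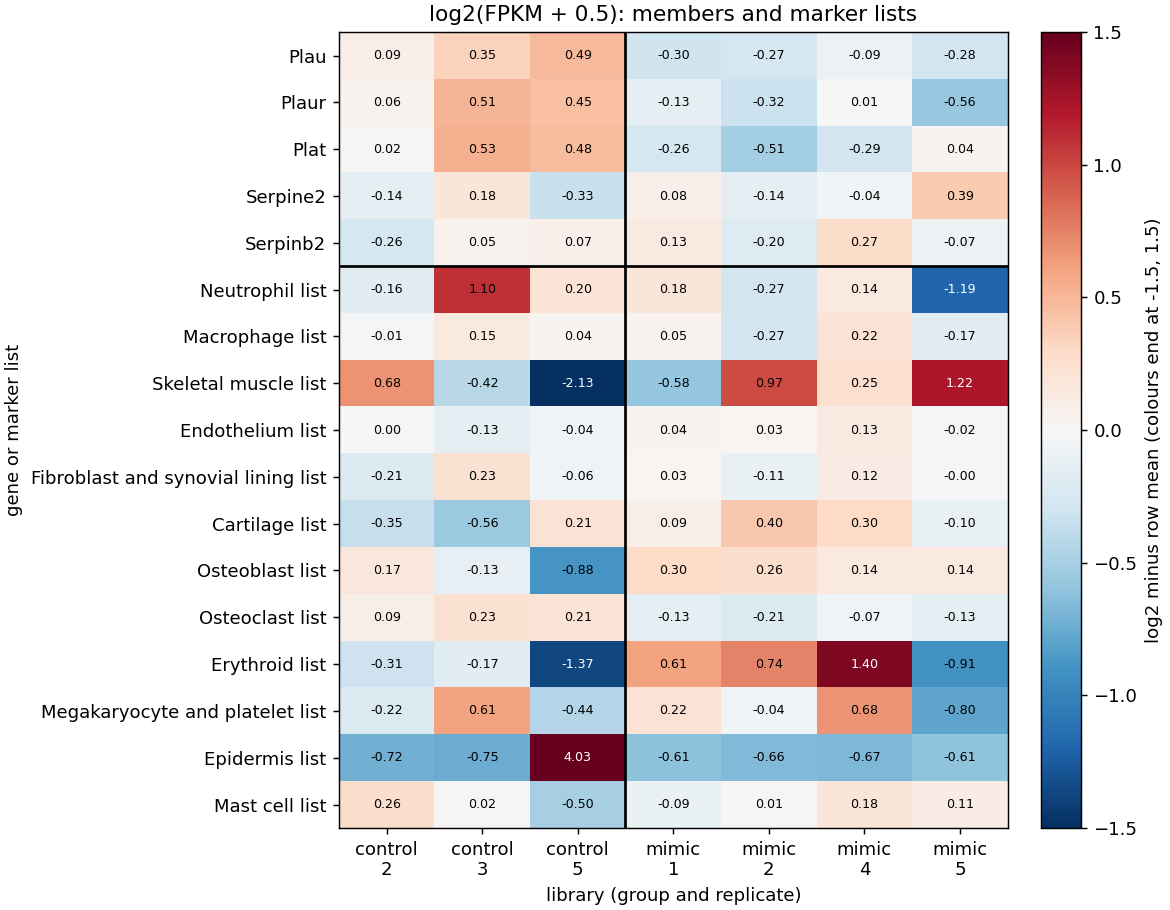
Each cell is log2(FPKM + 0.5) of a gene, or the mean of a marker list on that scale, minus its own mean over the 7 libraries; columns are libraries by group and replicate, and colours end at -1.5 and 1.5. Plau, Plaur and Plat are highest in control replicates 3 and 5, whereas Serpine2 is highest in mimic replicate 5; the epidermis list stands out in control replicate 5 and the neutrophil list is lowest in mimic replicate 5.

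Tested genes with a known symbol, other than members and predicted genes, were ranked by how closely their profiles over the 7 libraries followed each member. The measure was the root mean square difference of centred log2 values, over 12761 genes. Its median was 0.31 for Plau, 0.37 for Plaur, 0.38 for Plat, 0.26 for Serpine2 and 0.21 for Serpinb2. With so many genes and 7 libraries, different neighbours for different members are a description and carry no result of their own. The nearest to Plau were Cdc25c, a phosphatase of mitotic entry, Cdh1, which encodes E-cadherin, and Prdm1, a transcriptional repressor of lymphoid and myeloid cells, at 0.059, 0.065 and 0.066. For Plaur they were Csf2rb, the shared receptor chain of GM-CSF, IL-3 and IL-5, Gsdme, a gasdermin, and Il17ra, the receptor of IL-17A, at 0.048, 0.050 and 0.064. Csf2rb stood at 43.7 ± 6.07 FPKM in control and 28.5 ± 3.93 FPKM with the mimic. Plat had no neighbour as near: Gtse1 lay at 0.092, and Gpr183 and Fabp7 at 0.13. Olfml2a and Ccdc69 were among the nearest to Serpine2, at 0.063 and 0.074. Mme, Erap1 and Lamp2 were nearest to Serpinb2, between 0.050 and 0.057, a comparison that its low counts make uncertain. Among the members themselves Plau lay nearest to Plaur (0.15) and farther from Plat (0.18) and Serpine2 (0.44).

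The partner list held 32 other genes of plasminogen handling, of which 17 reached a mean of 1 FPKM. None passed over all genes tested; 4 were lower and 1 higher at an unadjusted p under 0.05, where 10.1% and 7.48% of all genes tested were. The median log2 fold change was -0.12, where the median over all genes tested was -0.0063. It was -0.22 without control replicate 2, -0.051 without control replicate 5 and -0.016 with the neutrophil covariate. Plasminogen itself (Plg) was between 0.0471 and 0.106 FPKM in control and between 0.163 and 0.239 FPKM in mimic ankles, too low to be tested. Transcripts of the fibrinogen chains Fga, Fgb and Fgg were likewise under the filter, as were the inhibitors Serpinf2 and Serpini1. Serpina5 was at 0 in every library.

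The smallest p in the list were those of Itgav and Itgb3. For Itgav, the alpha chain of vitronectin receptors, the control mean was 26.0 ± 4.06 FPKM and the mimic mean 19.7 ± 1.56 FPKM. The log2 difference of Itgav was -0.38 (limma adjusted p = 0.200). It was -0.51 without control replicate 2 (limma adjusted p = 0.0431) and -0.34 without control replicate 5 (limma adjusted p = 0.540). Itgb3, its partner chain, had -0.40 (limma adjusted p = 0.210), or -0.27 with the neutrophil covariate. Itgam, the alpha chain of the leukocyte integrin that associates with the urokinase receptor, had -0.63 (limma adjusted p = 0.236), and Itgb2 stood at 61.2 ± 12.05 and 44.1 ± 10.8 FPKM. Eno1, a glycolytic enzyme that also binds plasminogen, was at 178 ± 43.5 and 128 ± 13.3 FPKM without overlap (log2 fold change -0.45, or -0.26 without control replicate 5). With the neutrophil covariate Itgam was -0.39 and Eno1 -0.38, neither with an unadjusted p under 0.05. With the muscle covariate Itgam was -0.34 and Eno1 -0.23. Vtn, which encodes vitronectin, was the 1 partner higher at an unadjusted p under 0.05, at 5.38 ± 1.75 and 7.99 ± 1.41 FPKM (log2 fold change 0.56, or 0.22 with the muscle covariate and 0.30 without control replicate 5). Without control replicate 5 the unadjusted p of Eno1, Vtn, Itgam and Itgb3 no longer lay under 0.05, while that of Itgav did. Skeletal muscle markers summed to between 1213 and 7329 FPKM in control and between 2904 and 11062 FPKM in mimic ankles. All 10 muscle genes averaged more FPKM in the mimic ankles, and 0 of them had an unadjusted p under 0.05. The middle value of their log2 differences was 1.04. Among the members, the muscle covariate left Plau at -0.44, Plaur at -0.42, Plat at -0.51 and Serpine2 at 0.078. In that fit 3 members had an unadjusted limma p under 0.05, and 0 passed over all genes tested.

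Anxa2, S100a10, Lrp1, Plgrkt, Mrc2 and Igf2r, each above a mean of 20 FPKM, did not have an unadjusted p under 0.05. Anxa2 and S100a10, whose products form the annexin A2 complex that binds tissue-type activator and plasminogen, stood at 614 ± 76.3 and 326 ± 21.7 FPKM in control and at 518 ± 54.6 and 311 ± 34.6 FPKM in mimic ankles. Lrp1, the endocytic receptor that clears activator-inhibitor complexes, stood at 116 ± 14.2 and 106 ± 10.5 FPKM. Plgrkt, a transmembrane plasminogen receptor, was at 34.2 ± 3.71 and 38.4 ± 1.69 FPKM, Mrc2, the collagen receptor that associates with the urokinase receptor, at 68.2 ± 4.74 and 71.9 ± 3.35 FPKM, and Igf2r at 24.8 ± 1.44 and 24.5 ± 1.01 FPKM. The groups overlapped for each of these.

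**Figure D3:**
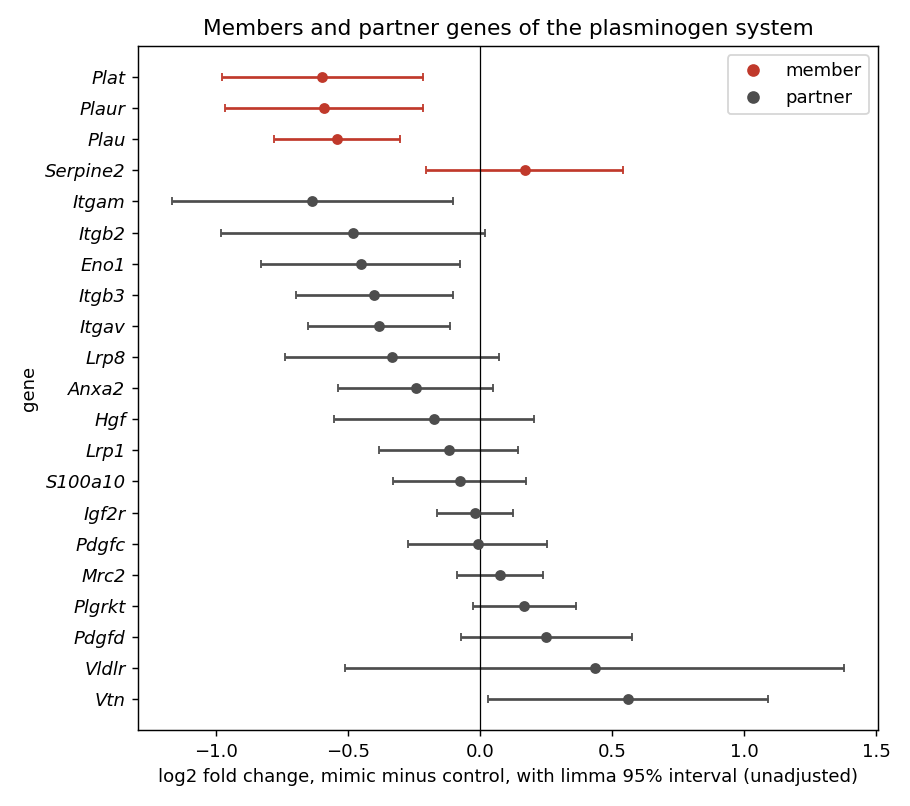
Log2 fold change (mimic minus control) of the 4 members and 17 partner genes that were tested, each with its unadjusted 95% interval from limma; members are in red and partners in grey. The intervals of Plat, Plaur and Plau lie below 0, as do those of Itgam, Eno1, Itgb3 and Itgav, that of Vtn lies above 0, and that of Serpine2 crosses it.

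Thrombin is the other main target of Serpine2, and the coagulation list showed no member that passed over all genes. Of 20 genes 16 were tested, and 1 was lower and 0 higher at an unadjusted p under 0.05. Over all genes tested 10.1% were lower and 7.48% higher, so the list held no excess. The median log2 fold change was -0.16 (-0.0066 without control replicate 3 and 0.026 when only genes averaging 5 FPKM or more were kept). The 1 gene was Serpind1, which encodes heparin cofactor II, at 2.89 ± 0.30 and 2.16 ± 0.36 FPKM (log2 fold change -0.36, or -0.31 and no longer under that p without control replicate 5). Tfpi2, a Kunitz inhibitor of plasmin and of tissue factor, stood at 10.3 ± 3.44 and 7.31 ± 0.78 FPKM, and F2rl1, a protease-activated receptor, at 1.18 ± 0.20 and 0.912 ± 0.081 FPKM. Thbd and Procr, which encode the thrombomodulin and protein C receptors of endothelium, were at 23.1 ± 2.52 and 23.6 ± 2.08 FPKM in control and at 23.8 ± 3.65 and 24.4 ± 3.50 FPKM in mimic ankles. F13a1, whose product crosslinks fibrin, stood at 87.7 ± 24.1 and 75.4 ± 10.1 FPKM, Pros1 at 52.3 ± 3.39 and 47.7 ± 3.61 FPKM and Gas6 at 438 ± 49.3 and 446 ± 33.7 FPKM.

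Relatives of Serpinb2 in clade B of the serpins were mostly low. Of 16 genes 5 were tested, and none had an unadjusted p under 0.05, where 10.1% of all genes tested were lower and 7.48% higher. The most abundant, Serpinb6a, averaged 174 ± 39.2 FPKM with the control microRNA and 210 ± 30.5 FPKM with the mimic. Serpinb1a, an inhibitor of neutrophil proteases, averaged 37.4 ± 7.17 and 33.0 ± 4.07 FPKM, and Serpinb6b at 2.36 ± 0.51 and 2.90 ± 0.59 FPKM. Serpinb6a and Serpinb6b belong to a multigene family, and how reads shared between its genes were counted is not given in the labels. The median log2 fold change over the 5 was 0.095, or -0.020 with no filter on low values.

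Start-site sequence was taken for a member with a lower mean, Plaur, and for one without, Serpine2, from RefSeq on GRCm38.p6, whose promoter table held 3 of the 5 members. Each window runs from 250 bases before to 50 after the start, on the gene's strand, at chr7:24462233-24462532 (plus strand) for Plaur and chr1:79858616-79858915 (minus strand) for Serpine2. Capitals mark matches, on either strand, to AP-1 (TGANTCA), STAT (TTCNNNGAA), the GC box (GGGCGG), the TATA box (TATAAA) and NF-kB by its usual consensus. Neighbouring GC boxes overlap by a base in places.
Plaur promoter: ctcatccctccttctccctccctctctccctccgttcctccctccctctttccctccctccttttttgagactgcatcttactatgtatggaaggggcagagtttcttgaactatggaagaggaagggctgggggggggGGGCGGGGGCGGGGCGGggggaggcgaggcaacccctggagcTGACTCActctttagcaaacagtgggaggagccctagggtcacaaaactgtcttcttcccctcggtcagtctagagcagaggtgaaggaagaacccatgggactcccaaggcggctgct
Serpine2 promoter: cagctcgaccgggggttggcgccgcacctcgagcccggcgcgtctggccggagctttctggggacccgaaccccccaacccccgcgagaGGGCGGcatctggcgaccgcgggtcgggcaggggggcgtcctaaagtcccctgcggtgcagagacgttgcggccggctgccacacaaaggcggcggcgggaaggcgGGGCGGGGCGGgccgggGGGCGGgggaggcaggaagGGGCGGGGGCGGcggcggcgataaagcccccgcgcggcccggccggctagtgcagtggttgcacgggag

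Plaur held an AP-1 match, TGACTCA, that starts 69 bases before the start site, and 3 GC boxes upstream of it. Serpine2 held 6 GC boxes and no match to the other 4 motifs. An AP-1 match was present in 7.81% of the 32851 promoter windows of this length, a GC box in 35.7%, a STAT match in 8.30%, NF-kB in 8.46% and a TATA box in 13.6%. The Serpinb2 windows held a TATA box, an AP-1 and a STAT match. Such matches describe letters in these windows and say nothing of what bound there.

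The fold changes of the 4 tested members kept their sign under each of the 19 alternatives, as the plot of fold changes by setting shows. Plau lay between -0.65 and -0.44, Plaur between -0.73 and -0.36 and Plat between -0.76 and -0.48.

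**Figure D4:**
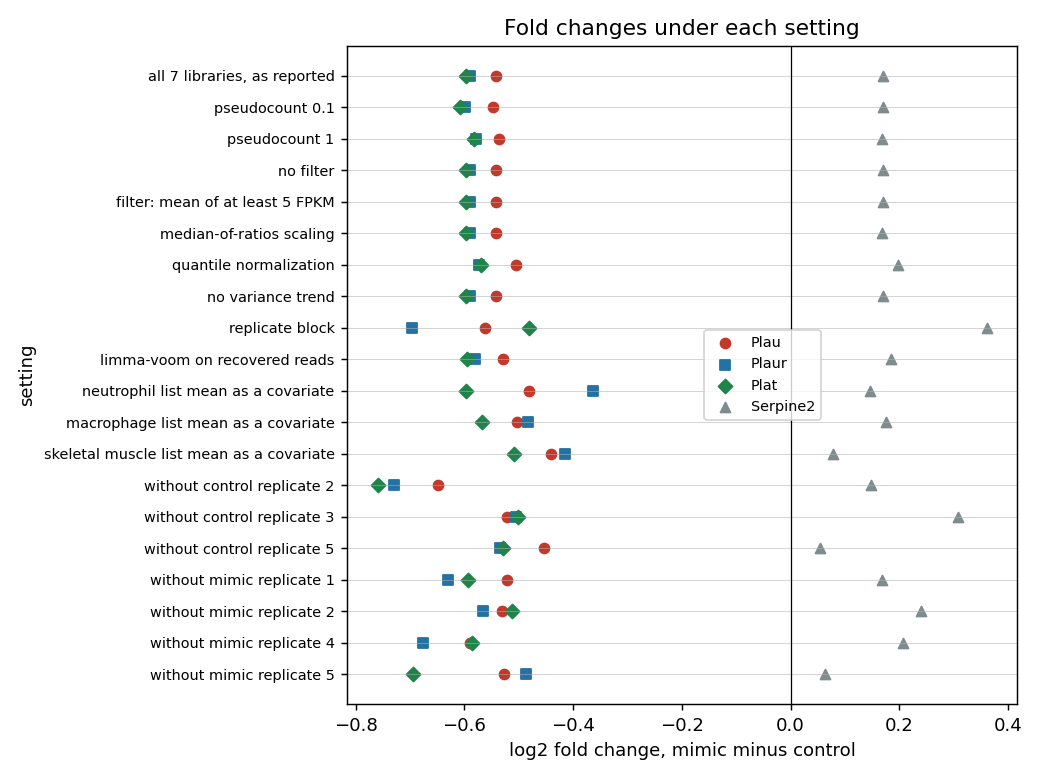
Log2 fold change (mimic minus control) of Plau, Plaur, Plat and Serpine2, one row for the values as reported and one for each alternative setting. Plau, Plaur and Plat stay below 0 and Serpine2 above 0 in every row; Plaur is nearest to 0 in the fit with the neutrophil covariate.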

How the data were processed

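RNA was profiled in 7 ankle libraries. Per the file headers, the values the authors deposited are FPKM, beside each gene's exon positions and joined exon length. The submitters' processing notes name STAR 2.5.2b, Subread with featureCounts, DESeq2 1.14.1 and bcl2fastq 2.20, and the builds mm10 and GRCm38, with no role given. Strand setting, annotation and kit: not given in the sources used here. Reads of overlapping genes on opposite strands therefore cannot be told apart. Symbols came from RefSeq for 25275 of 27179 Entrez numbers.

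Multiplying FPKM by length returned whole reads (tolerance 0.01 of a read) for 100% of values, and these gave the depth. No pair of libraries agreed within sampling noise (chi-square per gene at least 16.7 over 21 pairs), so none was treated as a library deposited again; this does not show that they came from separate mice. Genes averaging 1 FPKM or more were tested with limma 3.58.1 in R 4.3.3 (mean-variance trend) on log2(FPKM + 0.5), a scale that understates changes of low genes, with group as the factor, 2-sided, and Benjamini-Hochberg adjusted p over all 13418 genes tested. The test was checked on simulated data in which genes varied independently and the added changes were larger than those of the members. SDs and ratios were computed in Python 3.11.15.

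The members and gene lists were chosen with earlier results of these data known. Named genes were the members, in each list the 3 with the smallest p and those above a mean of 20 FPKM, and the 3 nearest profiles of each member; further list members are named as examples. A partner gene and a neighbouring profile are not reported here. Marker lists were averaged per library. Alternatives were pseudocounts of 0.1 and 1, no filter or one at 5 FPKM, quantile normalization, median-of-ratios scaling, a fit without the trend, the replicate number as a block, limma-voom on recovered reads, 3 marker list means as covariates, and leaving out each library.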

Additional observations from a re-analysis of the deposited data

Results flagged for a closer look

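Plau stood at 40.3 FPKM in mimic replicate 4, apart from the other 3 mimic libraries, which lay between 34.9 and 35.6 FPKM. It drew attention because the gap to the next library took up most of the range of its group. Mimic groups of 43 genes were examined in this way and this was the 1 that stood out, where chance marks about 1 group in 20. Without that library the log2 fold change of Plau was -0.59 (limma adjusted p = 0.236, within 0.0302 to 0.524 over its alternatives). Plaur and Serpinb2 were also highest of the mimic group in this library, at 24.7 and 0.583 FPKM.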

How the results depend on the processing

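With 3 against 4 ankles, leaving out 1 library decided the calls. Without control replicate 2, 317 genes passed at a limma adjusted p under 0.05, among them 1 member, Plau (-0.65), and 1 partner, Itgav (-0.51); leaving out 1 library gave from 0 to 317 genes, 0 to 1 members and 0 to 1 partners. Genes passing numbered 1 with no filter, 1 with the neutrophil covariate and 2 without mimic replicate 5. Genes at an unadjusted p under 0.05, 2356 as reported, numbered 1064 with the replicate block, 1334 with the neutrophil covariate, 1511 with the muscle covariate, and from 1213 to 3831 when 1 library was left out. By leaving out 1 library, log2 fold changes ranged from -0.65 to -0.45 for Plau, from -0.73 to -0.49 for Plaur, from -0.76 to -0.50 for Plat and from 0.054 to 0.31 for Serpine2. The partner median was -0.020 with no filter and -0.016 with the neutrophil covariate, and from -0.22 to -0.051 without 1 library; the coagulation median was 0.026 over genes of at least 5 FPKM and -0.010 with the neutrophil covariate, and from -0.23 to -0.0066 without 1 library. The causes were not tested. Replicate numbers 2 and 5 occur in both groups, but the deviations of same-numbered libraries correlated at 0.54 and -0.43. The numbers were therefore not taken as pairs. With the replicate number as a block, only the libraries numbered 2 and 5 set the group difference, since the other numbers occur in a single group. In that fit Plau was -0.56, Plaur -0.70 and Plat -0.48, each with a limma adjusted p of 0.524, and the clade B median was -0.024. Depth limits Serpinb2 and Plg.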

Other observations

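Some clade B serpins of stratified epithelium were highest in control replicate 5, the library with epidermal transcripts. Serpinb5, which encodes maspin, was at 0.620 FPKM in that library and at no more than 0.0671 FPKM in any other. Serpinb3a was at 0.358 FPKM there and at 0 in the remaining 6 libraries. Serpinb12 was at 0.561 FPKM there and at most at 0.204 FPKM elsewhere. Plau was at its highest in the same library, at 60.3 FPKM, whereas Plaur and Plat were higher in control replicate 3. These genes were chosen after their values were seen.

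Serpinb10, a haematopoietic clade B serpin, was at 1.87 FPKM in control replicate 3 and between 0.322 and 0.880 FPKM in the other libraries; that library also had the highest neutrophil list mean, 7.16 on the log2(FPKM + 0.5) scale.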
